A study of Mus musculus with 6 samples.

Results

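Islet cells of P1 (postnatal day 1) pups that were sorted as Wnt4hi or Wnt4low were compared for 10 β-cell disallowed genes, Ldha, Slc16a1, Hk1, Hk2, Rest, Maf, Zfp36l1, Acot7, Oat and Mgst1. They were taken by gene symbol, with no threshold on their measured values, from 22911 symbols that have a probe on the array, and all 15 of their probes among 56605 probes were used. The pups are described as carrying the Wnt4eGFPCre allele (Wnt4 tm2(EGFP/cre)Svo) and the mTmG reporter (allele tm4 Luo of Gt(ROSA)26Sor, in which Cre replaces ACTB-driven tdTomato by EGFP), and the line was crossed to C57BL/6J. The series' design text gives both populations as sorted from such pups, whereas a legend of the study writes the comparison as animals with and without the Cre allele, and the labels do not settle this. Membrane GFP (mGFP) marks cells in which Cre made from the Wnt4 locus has acted, so the sort reads past as well as present Wnt4 expression. Wnt4hi replicates 2, 3 and 4 were GFPpositive cells and Wnt4low replicates 1, 3 and 4 were GFPnegative cells, each a pool of islets from 4, 4 and 3 pups, and no treatment was given. Nothing in the labels says whether pools with the same number came from the same pups.

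Disallowed genes are widely expressed genes that mature β-cells keep at a low level. Ldha makes the lactate dehydrogenase subunit that favors lactate formation, and Slc16a1 makes the monocarboxylate transporter MCT1, which carries lactate and pyruvate across the plasma membrane. With both low, pyruvate made from glucose is directed to mitochondria, and pyruvate arriving from blood does not trigger insulin release. Hk1 and Hk2 make hexokinases with a high affinity for glucose. Rest is a repressor of neuronal genes, many of which endocrine cells use for secretion. The other genes make a transcription factor (Maf), an RNA-binding protein that promotes decay of AU-rich transcripts (Zfp36l1), an acyl-CoA thioesterase (Acot7), a mitochondrial enzyme of ornithine metabolism (Oat) and a microsomal glutathione transferase (Mgst1).

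The promoters of Ldha, Slc16a1 and Hk2 are shown because the 3 hold ACGTG, letters found at the core of the hypoxia response elements of glycolytic genes. Each run is the 250 bases ahead of the RefSeq start of the gene on GRCm38.p6, read 5′ to 3′ along the strand of the gene, and capitals mark ACGTG and GCGTG on either strand (CACGT and CACGC when read from the other strand). CACGTG, the E-box, contains ACGTG on both strands.
Ldha (chr7:46845554-46845803, plus strand): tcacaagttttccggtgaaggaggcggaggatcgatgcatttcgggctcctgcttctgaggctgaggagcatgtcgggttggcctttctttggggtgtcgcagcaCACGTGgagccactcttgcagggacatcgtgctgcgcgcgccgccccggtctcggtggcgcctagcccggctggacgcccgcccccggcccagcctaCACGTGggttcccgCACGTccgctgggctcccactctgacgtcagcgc
Slc16a1 (chr3:104638414-104638663, plus strand): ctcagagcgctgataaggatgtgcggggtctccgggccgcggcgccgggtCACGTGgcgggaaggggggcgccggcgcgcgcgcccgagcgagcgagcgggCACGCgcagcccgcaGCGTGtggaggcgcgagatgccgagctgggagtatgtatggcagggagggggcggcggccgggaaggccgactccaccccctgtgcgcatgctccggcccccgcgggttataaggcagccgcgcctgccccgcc
Hk2 (chr6:82774455-82774704, minus strand): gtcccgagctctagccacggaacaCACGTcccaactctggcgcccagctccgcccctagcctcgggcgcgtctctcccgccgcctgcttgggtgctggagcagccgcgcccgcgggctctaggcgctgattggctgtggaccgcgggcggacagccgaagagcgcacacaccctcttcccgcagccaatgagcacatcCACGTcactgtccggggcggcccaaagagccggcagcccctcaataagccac

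RefSeq windows were held for 8 of the 10 genes, and a pair of windows each for Ldha, Hk1 and Mgst1, which gave 11 windows. Rest and Maf had none in the table used. On either strand, ACGTG was present in 16.6% of all 32851 windows and in 3 of the 11, those printed. CACGTG was present in 6.02% of all windows, and among the disallowed genes in the windows of Ldha and Slc16a1. GCGTG was present in 28.2% of all windows and in 4 of the 11, of Ldha (its other window), Slc16a1, Hk1 and Acot7. GGGCGG, the letters of a GC box, was found in 32.7% of all windows and in 5 of the 11 (Ldha, Slc16a1, Hk2, Acot7 and Mgst1), and TATAAA in 12.4% and in that of Zfp36l1. Neither TGACTCA, which is TGAGTCA on the other strand and lay in 4.46% of windows, nor TGCTGAC, part of the site of MAF proteins, which lay in 3.81%, was found in the 11. The letters are a description of these windows, and the array measured no binding to them.

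Values are log2 intensities after background correction and quantile normalization, and a difference is the mean of Wnt4hi minus the mean of Wnt4low. Each gene is represented by its brightest probe (mean of the 6 arrays), and its other probe is given where it has one. The 6 arrays had 59305 spots that are not controls, of which 70.5 to 79.5% were well above background, and 0 were saturated. The sort reads Cre made from the Wnt4 locus, not Wnt4 RNA. Wnt4 RNA was at 11.20, 10.53 and 10.77 on the Wnt4hi arrays and at 9.85, 10.11 and 9.31 on the Wnt4low arrays, without overlap. Its difference was 1.08 (SE 0.27, adjusted p = 0.206 in limma).

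Of the 10 disallowed genes, 9 had a lower mean in Wnt4hi, and the median difference was -1.35 (-1.25 with Hk2 at its bound), whereas the median over all 56605 probes was 0.06 and 38.7% of them were lower in Wnt4hi. At the unadjusted threshold of 0.05 that the study used, 7 were lower (Ldha, Slc16a1, Hk1, Hk2, Maf, Zfp36l1 and Acot7) and 0 were higher. Over all probes, 6.15% were called lower and 4.84% higher at that threshold. Among the 35292 probes well above background on all 6 arrays, to which 9 of the 10 genes belong, the shares were 6.14% and 5.98%. The same 7 genes had all Wnt4hi arrays below all Wnt4low arrays, a separation seen in 7.14% of all probes, while 9.22% were separated in the other direction. After Benjamini-Hochberg adjustment in limma over all probes, 0 of the 10 representing probes passed 0.05 (lowest adjusted p = 0.0943, for Hk2), as 0.438% of all probes did in the lower and 0.0371% in the higher direction. Over all 15 probes, 12 were lower in Wnt4hi, 10 at the unadjusted threshold, and 1, the other probe of Zfp36l1, passed after adjustment. The labels do not say that replicates came from separate litters, so the p-values measure the spread between these pools.

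**Figure D1:**
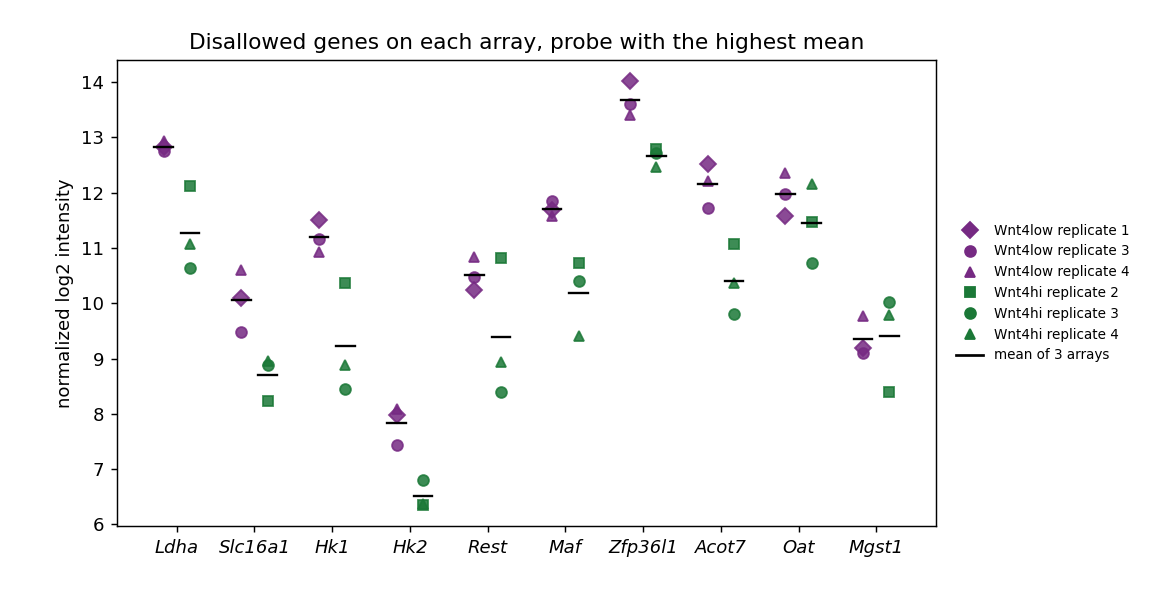
Normalized log2 intensity (vertical axis) of the representing probe of each of the 10 disallowed genes on the 6 arrays, with Wnt4low in purple, Wnt4hi in green, a marker shape per replicate number and a bar at the mean of 3 arrays. The arrays of both populations are separated for 7 genes and overlap for Rest, Oat and Mgst1.

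Ldha and Slc16a1 were both lower in Wnt4hi at the unadjusted threshold. Ldha was at 12.13, 10.63 and 11.07 in Wnt4hi replicates 2, 3 and 4 and at 12.82, 12.75 and 12.94 in Wnt4low replicates 1, 3 and 4. The Wnt4low arrays lay within 0.19 of each other, and all Wnt4hi arrays were below them, replicate 2 by the least. The difference was -1.56 (SE 0.38, adjusted p = 0.190), or 2.95-fold. The other Ldha probe ran from 9.46 to 10.28 in Wnt4hi and from 10.74 to 11.31 in Wnt4low, a difference of -1.23 (SE 0.27, adjusted p = 0.152), so both probes gave the same direction. Slc16a1 was at 8.23, 8.89 and 8.96 in Wnt4hi and at 10.10, 9.48 and 10.61 in Wnt4low. Here Wnt4hi replicate 2 was the lowest of the 6 arrays, and the difference was -1.37 (SE 0.34, adjusted p = 0.201), or 2.58-fold.

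The 17 other genes of lactate and pyruvate metabolism had no common direction, with 9 lower, 8 higher and a median difference of -0.02. At the unadjusted threshold 1 of them was lower, Ldhb, the other main lactate dehydrogenase subunit, and 1 was higher, Mpc1, a subunit of the mitochondrial pyruvate carrier. Ldhb was at 10.59, 8.80 and 10.18 in Wnt4hi and at 11.39, 10.76 and 11.25 in Wnt4low (difference -1.28, SE 0.48, adjusted p = 0.401). Mpc1 ran from 9.35 to 10.28 in Wnt4hi and from 8.85 to 9.33 in Wnt4low (difference 0.84, SE 0.28, adjusted p = 0.334). Neither overlapped between populations, which was a condition for naming them. Slc16a7, which makes the transporter MCT2, was between 11.26 and 11.38 in Wnt4hi and between 11.19 and 11.53 in Wnt4low, a difference of -0.04 (SE 0.15). Slc16a3, the gene of the lactate exporter MCT4, named after its value was seen, differed by -0.24 (SE 0.25), with overlapping arrays.

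Hk1 was at 10.37, 8.45 and 8.89 in Wnt4hi and at 11.51, 11.16 and 10.94 in Wnt4low. The Wnt4hi arrays spread over 1.92, with replicate 2 nearest to the Wnt4low range. The difference was -1.97 (SE 0.50, adjusted p = 0.206), or 3.92-fold. The other Hk1 probe, designed on another transcript (NM_010438), was well above background on 0 of 6 arrays and gives no level for that transcript. Averaging both Hk1 probes gave a difference of -0.96. The authors' own normalized table gave -0.52, read at the first Hk1 probe found there, which need not be the brightest. Hk2 was well above background on 0 Wnt4hi arrays and on 2 of the 3 Wnt4low arrays. Its values were 6.35, 6.81 and 6.38 in Wnt4hi and 7.97, 7.44 and 8.09 in Wnt4low, without overlap (adjusted p = 0.0943). At its bound it was 1.42-fold lower in Wnt4hi. For the bound, each array of the dimmer population was set to the smallest log2 intensity that any of its probes well above background had, or to its own value if higher. The brighter population kept its mean, so the bound is no strict minimum where, as for Hk2, an array of that population was not well above background.

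Among 10 other genes of glucose entry and phosphorylation, 2 were lower in Wnt4hi at the unadjusted threshold and 1 was higher, and the median was -0.05. The lower ones were the glucose transporters Slc2a1 (GLUT1) and Slc2a3 (GLUT3), and the higher one was Slc2a2 (GLUT2), the main glucose transporter of the rodent β-cell. Slc2a1 was at 8.67, 9.35 and 9.60 in Wnt4hi and at 10.29, 10.54 and 10.56 in Wnt4low (difference -1.26, SE 0.26, adjusted p = 0.135). Slc2a3 was well above background on 0 Wnt4hi and 3 Wnt4low arrays, with a level at least 3.18-fold lower in Wnt4hi (adjusted p = 0.0793). Slc2a2 was at 12.67, 12.55 and 11.82 in Wnt4hi and at 9.68, 11.54 and 10.80 in Wnt4low (difference 1.67, SE 0.50, adjusted p = 0.283). None of these 3 overlapped between populations, which was a condition for naming them, and none passed after adjustment.

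**Figure D2:**
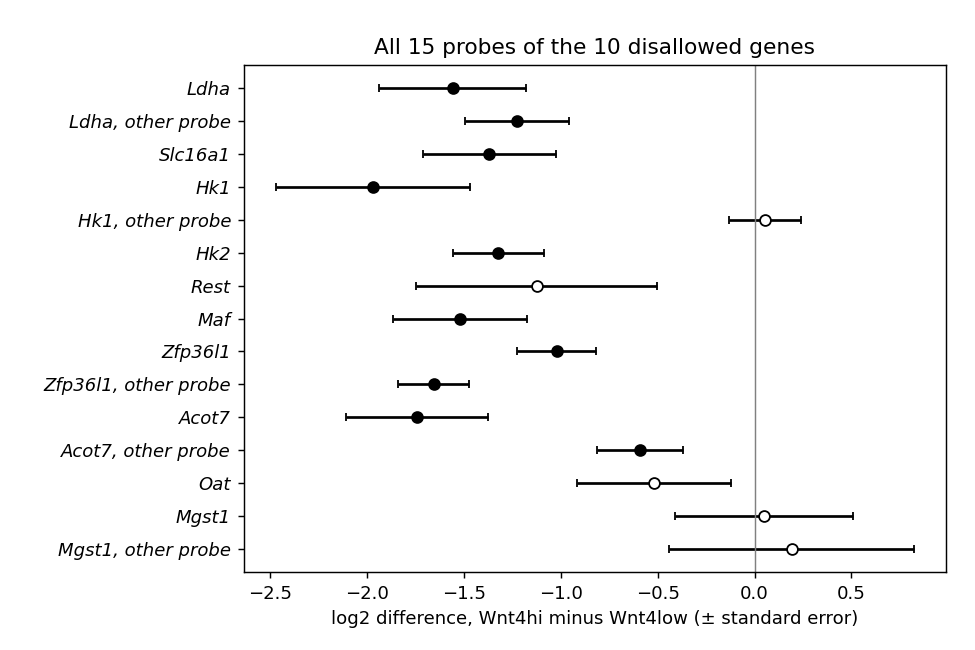
Log2 difference, Wnt4hi minus Wnt4low (horizontal axis), of all 15 probes of the 10 disallowed genes, with bars for the standard error from limma and filled points for an unadjusted p below 0.05. The points run from -1.97 (Hk1) to 0.19 (the other Mgst1 probe), and the 10 filled points all lie below 0.

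Rest did not pass the threshold. It was at 10.83, 8.40 and 8.95 in Wnt4hi and at 10.24, 10.48 and 10.83 in Wnt4low. Wnt4hi replicate 2 lay at the top of the Wnt4low range, while the other Wnt4hi arrays were below every Wnt4low array. The difference was -1.12 (SE 0.62, unadjusted p = 0.119, adjusted p = 0.614). This value depends on single Wnt4hi arrays, since it was -1.84 without replicate 2 (unadjusted p = 7.65e-04) and -0.63 without replicate 3 (unadjusted p = 0.325). Of 10 genes for REST corepressors, 0 were lower and 1 was higher at the unadjusted threshold, Kdm1a, a histone demethylase, with a difference of 0.49 (SE 0.19, adjusted p = 0.434), and the median was 0.34.

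Of 16 listed REST target genes, 2 were lower and 3 higher in Wnt4hi at the unadjusted threshold, with a median difference of 0.35. Stmn2, a neuronal microtubule regulator, was at 6.44, 6.58 and 6.69 in Wnt4hi, where it was well above background on 0 arrays, and at 10.78, 9.54 and 10.69 in Wnt4low. It was at least 8.01-fold lower in Wnt4hi and passed after adjustment (adjusted p = 0.0290), and the adjusted p was 0.0550 to 0.128 when any 1 array was left out. The other calls are named because they are few and were chosen after their values were seen. Scn2a, a neuronal sodium channel gene, was lower by a difference of -1.11 (adjusted p = 0.103), and Chga, which makes the secretory granule protein chromogranin A, was higher by 1.12 (adjusted p = 0.342). Gjd2, which makes the gap junction protein connexin of β-cells, was higher by 1.18 (adjusted p = 0.336), and Celsr3, a cadherin of planar cell polarity, by 1.02 (adjusted p = 0.363). Apart from Stmn2, these calls held only without adjustment.

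Maf, which makes the large MAF factor c-MAF, was at 10.73, 10.41 and 9.41 in Wnt4hi and at 11.69, 11.85 and 11.57 in Wnt4low. The Wnt4low arrays were close together, and the Wnt4hi arrays were all below them. The difference was -1.52 (SE 0.35, adjusted p = 0.166), or 2.87-fold. Mafa, a factor of mature β-cells, was between 15.32 and 15.53 in Wnt4hi and between 15.21 and 15.62 in Wnt4low (difference -0.05, SE 0.16). Of the 5 other family genes listed, 0 were lower and 1 was higher at the unadjusted threshold, the small MAF gene Mafg (difference 0.65, SE 0.16, adjusted p = 0.190).

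Zfp36l1 had the smallest standard errors among the called genes. Its representing probe was at 12.78, 12.71 and 12.48 in Wnt4hi and at 14.02, 13.61 and 13.41 in Wnt4low (difference -1.02, SE 0.20, adjusted p = 0.121). Its other probe was at 10.98, 10.47 and 10.55 in Wnt4hi and at 12.18, 12.36 and 12.44 in Wnt4low, with a difference of -1.66 (SE 0.18, adjusted p = 0.0376). Both probes were separated between populations, and the other one is the only probe of the 15 that passed after adjustment. That call was lost whichever of the 6 arrays was left out (adjusted p from 0.0564 to 0.137). Of the 3 other family genes, Zfp36l2 was lower as well, at 11.74, 12.51 and 12.16 in Wnt4hi and at 13.48, 12.93 and 13.47 in Wnt4low (difference -1.16, SE 0.26, adjusted p = 0.159), and 0 were higher at the unadjusted threshold.

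Acot7 was at 11.07, 9.81 and 10.36 in Wnt4hi and at 12.52, 11.73 and 12.21 in Wnt4low, without overlap. The difference was -1.74 (SE 0.37, adjusted p = 0.139), or 3.34-fold. The other Acot7 probe, designed on another transcript (NM_001146057), was between 9.23 and 9.41 in Wnt4hi and between 9.65 and 10.37 in Wnt4low, with the smaller difference of -0.59 (SE 0.22, adjusted p = 0.403). That probe kept its call in 11 of the 17 alternatives that gave it a value. Of 14 other thioesterase genes, 1 was lower at that threshold, Acot9 (difference -1.38, SE 0.35, adjusted p = 0.204, well above background on 1 Wnt4hi array), and 1 was higher, Acot8 (difference 0.97, adjusted p = 0.367), whose arrays overlap and which was chosen after its value was seen, and the median was 0.16 (0.12 with 1 gene at its bound).

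Oat and Mgst1 showed no difference beyond the spread of the arrays. Oat was at 11.47, 10.73 and 12.15 in Wnt4hi and at 11.58, 11.98 and 12.36 in Wnt4low, so the populations overlapped, with a difference of -0.52 (SE 0.40, unadjusted p = 0.236). It was -0.87 without Wnt4hi replicate 4, the highest Wnt4hi array (unadjusted p = 0.0493), -0.16 without Wnt4hi replicate 3, the lowest (unadjusted p = 0.649), and -0.33 without Wnt4low replicate 4. Of 12 measured genes of ornithine, arginine and proline metabolism, 1 was lower and 1 was higher at the unadjusted threshold, and the median was 0.04. The lower one was Slc25a15, the mitochondrial ornithine carrier (adjusted p = 0.298). It was well above background on 0 Wnt4hi arrays and 1 Wnt4low array, so no fold is given. The higher one was Prodh2, with a difference of 0.40 (SE 0.16, adjusted p = 0.433).

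Mgst1 was at 8.397, 10.018 and 9.797 in Wnt4hi and at 9.191, 9.104 and 9.768 in Wnt4low, with a difference of 0.05 (SE 0.46, unadjusted p = 0.917). Wnt4hi replicate 2 was the lowest and replicate 3 the highest of the 6 arrays, and the standard error leaves room for a change of either sign. The other Mgst1 probe was well above background on 2 arrays of each population, with a difference of 0.19 (SE 0.63). Of 16 other glutathione transferases and related membrane proteins, 3 were lower in Wnt4hi at the unadjusted threshold and 1 was higher, with a median of -0.35. The lower ones were Gstm2 (difference -1.46, SE 0.20, adjusted p = 0.0571), Gstm1 (-1.22, SE 0.32, adjusted p = 0.213) and Gstk1 (-0.87, SE 0.17, adjusted p = 0.121). None overlapped, which was a condition for naming them. Gstz1, an enzyme of tyrosine breakdown, was higher by 1.39 (SE 0.20, adjusted p = 0.0632).

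Another 19 genes that have been listed as disallowed in β-cells had a median difference of -1.33. Of these, 13 were lower and 0 higher at the unadjusted threshold, where 6.15% of all probes were called lower and 4.84% higher. After adjustment 2 passed, Itih5, a matrix protein, and Lmo4, a transcriptional cofactor. Itih5, well above background on 0 Wnt4hi arrays, was at least 3.12-fold lower there (adjusted p = 0.0411). Lmo4 was at 10.67, 10.79 and 10.51 in Wnt4hi and at 11.90, 11.66 and 11.77 in Wnt4low (difference -1.12, SE 0.15, adjusted p = 0.0494). Leaving out any 1 array ended both calls, with an adjusted p of 0.0686 to 0.151 for Itih5 and 0.0949 to 0.161 for Lmo4. The list includes Pdgfra, which is also among the mesenchymal markers used below.

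Within the arrays, the balance of 4 gene pairs was compared between populations, each as the difference of 2 log2 values on the same array. A test of 3 against 3 arrays cannot give an exact p below 0.1. Mafa relative to Maf was higher in Wnt4hi by 1.47 and Slc16a7 relative to Slc16a1 by 1.33, without overlap (exact two-sided permutation p = 0.1 for each, 0.2 after Benjamini-Hochberg adjustment over the 4 pairs). Ldhb relative to Ldha changed by 0.28 (exact permutation p = 0.5) and Zfp36l2 relative to Zfp36l1 by -0.14 (exact permutation p = 0.7), both overlapping.

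**Figure D3:**
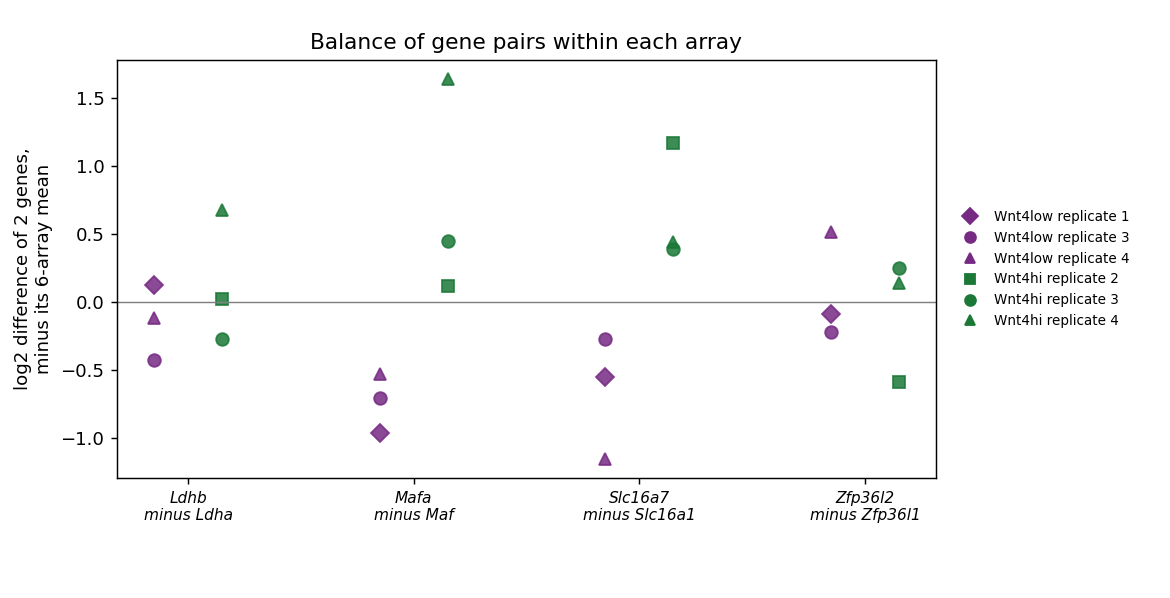
Within-array log2 difference of 2 genes, minus its mean over the 6 arrays (vertical axis), for 4 pairs, with Wnt4low in purple, Wnt4hi in green and a marker shape per replicate number. The populations are apart for Mafa minus Maf and Slc16a7 minus Slc16a1 and overlap for Ldhb minus Ldha and Zfp36l2 minus Zfp36l1.

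The spread of the disallowed genes was larger in Wnt4hi than in Wnt4low for 7 of the 10, and the standard deviation was larger in Wnt4hi for 47.0% of all probes. Wnt4hi replicate 2 was the highest of the 3 Wnt4hi arrays for 6 genes (Ldha, Hk1, Rest, Maf, Zfp36l1 and Acot7), and the lowest for Slc16a1 and Mgst1. Hk2, not well above background on any Wnt4hi array, gives no order among them. The mean log2 level of the 10 genes was 10.24 on this array, 9.69 and 9.84 on the other Wnt4hi arrays, and 10.96 to 11.27 on the Wnt4low arrays. Without Wnt4hi replicate 2, 8 of the 10 genes passed the unadjusted threshold, Rest being the additional one.

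Endothelial, mesenchymal and leukocyte markers had calls in the same direction as the disallowed genes. All 12 endothelial markers were lower in Wnt4hi, 11 at the unadjusted threshold and 8 after adjustment, with a median difference of -3.63 (-3.60 with Tie1 and Tek at their bounds), and their mean log2 level was 8.39 to 8.78 in Wnt4hi and 11.49 to 12.36 in Wnt4low. Without any 1 array, 11 still passed the unadjusted threshold but 0 passed after adjustment, apart from 1 without Wnt4hi replicate 2. Egfl7 and Pecam1 were well above background on all 6 arrays, and Tie1 and Tek on 0 Wnt4hi arrays. Of 12 mesenchymal and mural markers, 11 were lower, 7 at the unadjusted threshold and 0 after adjustment, with a median of -1.18, and their mean level was 12.10, 10.84 and 11.19 in Wnt4hi replicates 2, 3 and 4 and 12.46 to 12.76 in Wnt4low. The largest differences without overlap were those of Des (-1.98, adjusted p = 0.0571), Pdgfrb (-1.86), Pdgfra (-1.73) and Rgs5 (-1.72). Of the 3 most abundant, Col3a1 was at 14.07, 12.37 and 13.50 in Wnt4hi and at 14.20, 14.50 and 14.80 in Wnt4low, while Col1a2 (difference -1.06, SE 0.44) and Acta2 (difference -0.21, SE 0.21) overlapped between populations. Wnt4hi replicate 2, where 6 disallowed genes were highest within Wnt4hi, also had the highest mesenchymal, endothelial and leukocyte levels of the Wnt4hi arrays, and the highest erythroid and Schwann cell levels. Of 12 leukocyte markers, 11 were lower, 6 at the unadjusted threshold and 0 after adjustment, with a median of -0.89 (-0.73 with Mrc1 at its bound) and a level of 9.22 to 9.85 in Wnt4hi and 10.26 to 10.58 in Wnt4low.

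β-cell and α-cell markers had calls in the other direction. Of 13 β-cell markers, 8 were higher and 0 lower in Wnt4hi at the unadjusted threshold, with a median of 0.97 and a level of 13.11 to 13.33 in Wnt4hi and 11.39 to 12.82 in Wnt4low. Ins2 was at 16.65, 16.66 and 16.61 in Wnt4hi and at 16.01, 16.42 and 15.81 in Wnt4low, so insulin transcripts were abundant in both populations. Of 7 α-cell markers, 2 were higher and 0 lower, with a median of 1.41, and of the 4 δ- and PP-cell markers 2 were lower (Sst, difference -0.56, and Hhex, -1.75) and 1 was higher (Ppy, 1.22). Of 10 acinar markers 2 were lower, of 8 ductal markers 1 was lower and 1 higher, of 8 Schwann cell markers 2 were lower and 1 higher, and of 8 measured erythroid markers 3 were lower, all at the unadjusted threshold. After adjustment 0 of these endocrine, acinar, ductal, Schwann cell and erythroid markers passed. Wnt4low replicate 1 had the lowest β-cell and α-cell levels and the highest endothelial level of the 6 arrays, and without it the same count of 7 disallowed genes was lower at that threshold. In sorted pools of this kind, fewer cells of a type and less RNA per cell cannot be told apart. The part of endothelial, mesenchymal and leukocyte RNA in the differences of the disallowed genes was not tested.

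**Figure D4:**
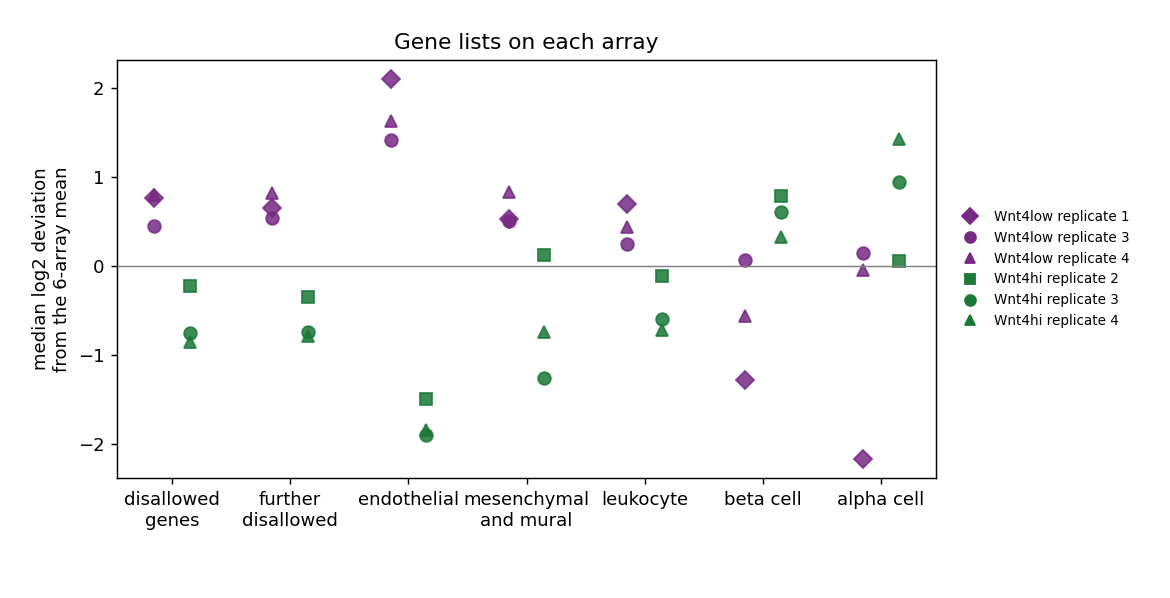
Median log2 deviation of the genes of each list from their mean over the 6 arrays (vertical axis), per array, with Wnt4low in purple, Wnt4hi in green and a marker shape per replicate number. The disallowed genes, the further disallowed genes and the endothelial, mesenchymal and leukocyte markers are lower on all Wnt4hi arrays, by most for the endothelial markers. The β-cell markers are higher on all Wnt4hi arrays, and the α-cell markers overlap, with Wnt4hi replicate 2 below Wnt4low replicate 3.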

How the data were processed

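Picogram amounts of RNA from FACS-sorted P1 islet cells were amplified, and the Cy5-labelled cDNA was measured on 6 single-color SurePrint G3 Mouse v2 arrays of 1 slide, so that no batch could be tested. For every array the authors deposited scanner files with the median spot intensity and the median local background, not normalized, and a processed intensity corrected by the scanner software (Agilent Feature Extraction, version 9.1 in the submitters' processing notes and 12.0.1.1 in the file headers), and flags for outliers and for spots well above background. They also deposited normalized log2 values (36693 per array). In that table the column of Wnt4hi replicate 2 correlated at 0.27 with the scanner values of that label, against 0.84 to 0.87 for the other 5 columns, so it may hold another sample, and the table was used only as an alternative.

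Following the methods of the study, intensities were background-corrected with normexp (offset 50) and quantile-normalized in limma (version 3.58.1, R 4.3.3). Outlier spots (50 to 141 per array) were left out and spots of a probe were averaged. The populations were compared with lmFit and eBayes over 56605 probes, without covariates and with Benjamini-Hochberg adjustment over all of them. Of 35886 probes with a RefSeq accession, 32994 were named through RefSeq genes of GRCm38.p6, used for names, and promoter windows of that assembly came from RefSeq. Pairs were tested with exact permutation in scipy (version 1.17.1). The calculation was tested on simulated data. The ratio of median intensity to median background was 10.8 to 15.6, and precision is limited by the 3 arrays per population.

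Genes named were the 10 disallowed genes, members of each list past the adjusted or else the unadjusted threshold without overlap (at most 4 by size), the genes of the pairs and the most abundant markers. From the cell type marker lists only some of these are named, and Tie1, Tek and Mrc1 are named for their bounds. The disallowed genes and all lists were chosen with earlier results of these data known, and a few genes of the lists and pairs are not reported here. Alternatives changed the background correction, normalization, filter on dim probes (well above background on all 3 arrays of a population), outlier spots, choice of probe, variance model, values, replicate block and left out each array.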

Additional observations from a re-analysis of the deposited data

How the results depend on the processing

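The 7 disallowed genes lower in Wnt4hi passed the unadjusted threshold in every alternative that gave them a value (20 each, and 19 for Hk2, which the filter on dim probes removed, and for Maf, which the authors' table lacks). Over all alternatives 6 to 8 genes were lower at that threshold, 0 higher, and the median ran from -1.60 to -1.11. After Benjamini-Hochberg adjustment in limma, 0 disallowed genes passed, against 1 (Zfp36l1, adjusted p = 0.0342) with the mean of all probes and 2 (Ldha, 0.0247, and Zfp36l1, 0.0281) in the authors' table. Over all alternatives, adjusted p ran from 0.0247 to 0.469 for Ldha, from 0.0281 to 0.360 for Zfp36l1 and from 0.0731 to 0.355 for Hk2. The 269 probes past the adjusted threshold became 669 when dim probes were left out (fewer probes tested), 406 in the authors' table, 0 in the methods' t-test, which they name for other measurements and not for the arrays (5169 at the unadjusted threshold), 0 with the replicate block (6167) and 0 to 3 without 1 array (5273 to 6421), and the cause was not tested. Hk1 was -0.52 in the authors' table and -0.96 with the mean of its probes, and Hk2 was -2.26 with the processed intensity. In the authors' table a gene was read at the first of its probes found there, which need not be its brightest. The Wnt4hi replicate 2 column of that table may hold another sample.

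Mgst1 reversed to -0.031 with cyclic loess and ran from -0.26 to 0.55 without 1 array. The other Hk1 probe, not well above background on any array, was -0.013 with the processed intensity, -0.060 with the replicate block and -0.11 to 0.18 without 1 array, and the other Mgst1 probe was -0.46 to 0.83 without 1 array. None of these 3 probes had a call, and the cause was not tested. Only numbers 3 and 4 are shared between populations, and deviations of these arrays correlated at -0.02 and 0.15, so the arrays were treated as sharing only a number, and whether they are paired is not known. With the replicate block each difference comes from the arrays numbered 3 and 4 alone, as the other numbers occur in only 1 population. Wnt4hi replicate 2 is thus left out of it. In that fit 8 disallowed genes were lower at the unadjusted threshold, with a median of -1.49, and 0 passed after adjustment. Rest was the added one (-1.98, unadjusted p = 6.50e-04).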
